A study of Mus musculus with 4 samples.

Results

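The genes described are 8 cytokine and receptor genes named by symbol: the interleukin-6 type cytokines Il6, Lif and Osm, the receptor chains Il6ra and Il6st, the cytokine Il10, and its receptor chains Il10ra and Il10rb. All 8 were measured, each by a single probe set that maps to 1 gene symbol, among 19938 genes that could be named. Expression values come from Affymetrix Mouse Gene 1.0 ST arrays of dendritic cells grown from whole mouse bone marrow, with 20 ng/mL GM-CSF and 10% serum. The 4 conditions were a control siRNA without LPS, the same control siRNA with LPS, an siRNA against NR4A3 without LPS, and the NR4A3 siRNA with LPS. All 4 cultures went through electroporation on day 10, and LPS, the bacterial product sensed by TLR4, was given at 100 ng/mL for 24 hours, starting 24 hours after transfection. The mice are called C57BL/6 in the sample characteristics and BALB/c in the growth protocol, and no age or genotype is stated. Each condition has 1 array, so a pairwise difference could not be checked against replicates and carries no p-value.

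Interleukin-6 binds its own receptor chain, Il6ra, and signals through gp130, the product of Il6st, which LIF and oncostatin M (Osm) also use together with the LIF receptor or the oncostatin M receptor. gp130 activates JAK kinases and the transcription factor STAT3, and the same factor is activated by interleukin-10 through Il10ra and Il10rb, although interleukin-10 is known for restraining inflammatory gene expression in myeloid cells. Il10rb is also a receptor chain for interleukin-22 and the lambda interferons. Dendritic cells and macrophages are well-known producers of interleukin-6 and interleukin-10 after TLR ligation.

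Of the 8 genes, 4 (Il6, Lif, Il6ra and Il6st) have an entry in the RefSeq promoter table (build GRCm38.p6). The stretches of Il6 and Lif are shown because both cytokines were higher with LPS, and Il6 by far the most of the 8. Each run is the 250 bases before the annotated start, 5′ to 3′ on the plus strand, and capitals mark letters that match one of 6 short motifs searched on both strands. The Il6 stretch is chr5:30012864-30013113 and that of Lif is chr11:4257318-4257567.
Il6: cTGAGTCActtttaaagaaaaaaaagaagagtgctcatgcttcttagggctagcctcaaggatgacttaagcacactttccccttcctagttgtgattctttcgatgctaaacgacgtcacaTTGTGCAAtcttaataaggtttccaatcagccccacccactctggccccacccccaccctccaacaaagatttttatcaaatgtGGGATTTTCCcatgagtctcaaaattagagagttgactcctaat
Lif: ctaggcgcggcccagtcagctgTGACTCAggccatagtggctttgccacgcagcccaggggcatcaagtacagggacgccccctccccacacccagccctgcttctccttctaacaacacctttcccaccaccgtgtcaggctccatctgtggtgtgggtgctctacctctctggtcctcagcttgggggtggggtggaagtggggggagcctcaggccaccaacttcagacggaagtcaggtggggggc

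The Il6 stretch held 1 match to the NF-kB motif at positions -44 to -35 from the start, 1 to the C/EBP motif (TTGCNNAA, here on the minus strand) at -128 to -121, and 1 to the AP-1 motif (TGANTCA) at -249 to -243. Lif held 1 AP-1 match, at -228 to -222. Among all 32851 promoter windows of 300 bases, 5.56% held the NF-kB letters, 10.8% the C/EBP letters and 7.81% the AP-1 letters. The windows of Il6ra and Il6st held none of the 6 motifs. The NR4A response element (AAAGGTCA, in 1.51% of windows), the cyclic AMP response element (TGACGTCA, 1.79%) and the STAT motif (TTCNNNGAA, 8.3%) matched in none of the 4 windows, which says only that these letters are not there. The matched motifs do not overlap one another.

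The check of the siRNA held in both states. Nr4a3 stood at 11.21 and 7.15 (log2) with control and NR4A3 siRNA without LPS, and at 11.77 and 9.39 with LPS. Its level was 16.65-fold lower without LPS and 5.21-fold lower with it, so silencing was less deep in the LPS state. Array medians lay between 6.37 and 6.42. Of 9 dendritic cell markers, 7 reached the median level of the named genes, 6.66, on all 4 arrays (Itgax, Cd74, H2-Ab1, Zbtb46, Ccr7, Batf3 and Irf8). Flt3 stayed under it on all 4, and Cd209a reached it only without LPS. Of 6 macrophage markers measured, 5 reached it on all 4 arrays, and C1qa missed it with control siRNA and LPS. Of 28 measured markers of neutrophils, lymphoid cells, mast cells or basophils and stromal cells, 22 reached it on no array and 4 (S100a8, Col1a1, Col1a2 and Dcn) on all. In bulk RNA, fewer cells of a type and less RNA per cell cannot be told apart.

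**Figure D1:**
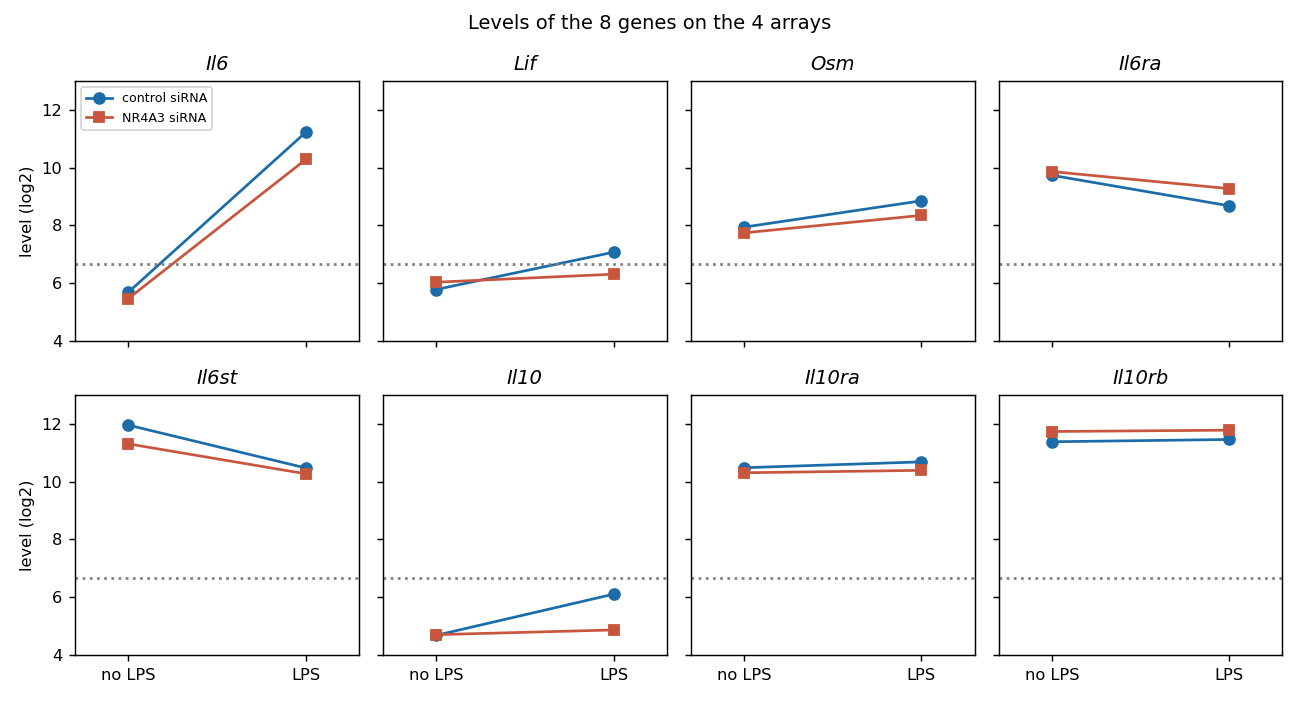
Level of each of the 8 genes (log2 expression, 1 array per point) without and with LPS, for control siRNA (circles) and NR4A3 siRNA (squares). The dotted line is 6.66, the median of all named genes. Il6 climbs from below the line to over 10 under either siRNA, Il6st and Il6ra are lower with LPS, and the lines of Lif and Il10 are steeper with control siRNA.

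The 3 interleukin-6 type cytokines were all higher with LPS in cells given control siRNA. Il6, the main inflammatory cytokine of the family, stood at 5.68 (log2) without and 11.23 with LPS under control siRNA, and at 5.46 and 10.28 under NR4A3 siRNA. Both LPS arrays were therefore far above both unstimulated arrays, and the lowest LPS array exceeded the highest unstimulated one by a wide margin. With control siRNA, Il6 was 46.6-fold higher after LPS, the 3rd highest of 10346 genes, and with NR4A3 siRNA 28.2-fold higher, the 10th highest of 10353. These folds are approximate, since unstimulated Il6 lay under 6.66, where the array resolves differences less well.

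Osm encodes oncostatin M, a gp130 cytokine made by activated myeloid cells. Its levels were 7.94 and 8.85 without and with LPS under control siRNA, and 7.74 and 8.34 under NR4A3 siRNA. Every array lay above 6.66, both LPS arrays were above both unstimulated ones, and the LPS differences were 1.88-fold and 1.52-fold. The second of these lies at the edge of the 1.5-fold threshold and was 0.53 (log2), under it, after quantile normalization was repeated on named genes alone.

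Lif encodes leukemia inhibitory factor and is the coding gene next to Osm on chromosome 11 in the RefSeq table. It stood at 5.78 without and 7.07 with LPS under control siRNA, and at 6.03 and 6.31 under NR4A3 siRNA. Only the array with control siRNA and LPS reached 6.66. Lif was 2.45-fold higher after LPS with control siRNA and 1.21-fold higher with NR4A3 siRNA, and the second pair stayed below the filter on dim genes on both arrays.

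The receptor chains of interleukin-6 were lower with LPS. Il6st, the shared signalling chain gp130, stood at 11.96 without and 10.48 with LPS under control siRNA, and at 11.31 and 10.27 under NR4A3 siRNA. Both LPS arrays were below both unstimulated arrays, and the differences were 2.80-fold and 2.05-fold lower. Il6ra, the ligand-binding chain, stood at 9.74 and 8.68 under control siRNA and at 9.86 and 9.27 under NR4A3 siRNA. Here too both LPS arrays were the lower ones, by 2.08-fold and 1.51-fold, the latter at the edge of the threshold: it was -0.54 (log2), not past 1.5-fold, after median centring.

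The interleukin-10 axis differed from this. Il10 stood at 4.68 without and 6.10 with LPS under control siRNA, and at 4.70 and 4.86 under NR4A3 siRNA. It was below 6.66 on all 4 arrays, and the 3 other arrays lay close together under the one with control siRNA and LPS. That difference of 1.43 (log2) is therefore given as a value and was not counted. Its receptor chains were well measured and nearly flat. Il10ra, the ligand-binding chain, ran from 10.31 to 10.69, and Il10rb, the accessory chain, from 11.39 to 11.79. Their LPS differences under control and NR4A3 siRNA were 0.20 and 0.08 for Il10ra, and 0.08 and 0.05 for Il10rb, and other scalings between arrays put those of Il10rb on either side of 0 (-0.04 to 0.14 and -0.03 to 0.10). Under the same scalings Il10ra ranged from 0.13 to 0.26 with control siRNA and from -0.00 to 0.13 with NR4A3 siRNA.

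The counts below take a difference of 1.5-fold or more in which the brighter of the 2 arrays reached 6.66. With control siRNA, 7 of the 8 genes passed the filter in the LPS comparison: Il6, Lif and Osm were counted as higher and Il6ra and Il6st as lower. Across all 10346 genes, 10.2% were higher and 9.44% lower by this rule (19.7% either way). With NR4A3 siRNA, 6 genes passed the filter, Il6 and Osm were higher and Il6ra and Il6st lower, against 10.3% and 6.88% of 10353 genes (17.2% either way). At 2-fold, Il6 and Lif were higher and Il6st and Il6ra lower with control siRNA, against 5.0% and 3.83% of all genes (8.82% either way). With NR4A3 siRNA, Il6 was higher and Il6st lower, against 5.31% and 2.71% (8.03% either way). The median difference over the 8 genes was 0.56 with control siRNA and 0.12 with NR4A3 siRNA, against -0.02 and 0.02 over all genes that passed. Over only the members past the filter, as for all genes, it was 0.20 (7 genes) and 0.07 (6 genes, without Lif).

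The 2 LPS comparisons share no array, so their average could be tested. An additive fit of siRNA and LPS with limma over 10592 genes, using 4 arrays and 1 residual degree of freedom, called 30.0% of genes for LPS at an adjusted p below 0.05, 15.6% higher and 14.4% lower. Of 7 of the 8 genes that could be tested, Il6 and Osm rose and Il6st and Il6ra fell. The average LPS effect on Il6 was 5.18 ± 0.18 (log2, SE), with an adjusted p of 5.7e-05 in limma. Osm rose by 0.76 ± 0.12 (limma adjusted p = 0.0058). Il6st fell by 1.26 on the log2 scale with an SE of 0.13 (limma adjusted p = 0.0017), and Il6ra by 0.83 with an SE of 0.14 (limma adjusted p = 0.0078). Each of these was in the same direction under both siRNAs and remained past the threshold in 7 of 7 alternatives. Lif, at 0.79 ± 0.23, missed the threshold (limma adjusted p = 0.052), though with those 4 it made 5 of 7 at an unadjusted p below 0.05, where 41.9% of all genes stood, and Il10ra and Il10rb had adjusted p-values of 0.33 and 0.67 in limma. Whether the arrays stem from independent cultures is not stated, so the spread behind these p-values may be technical. Most of that spread is borrowed from the other genes, with 4.76 prior against 1 residual degree of freedom.

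**Figure D2:**
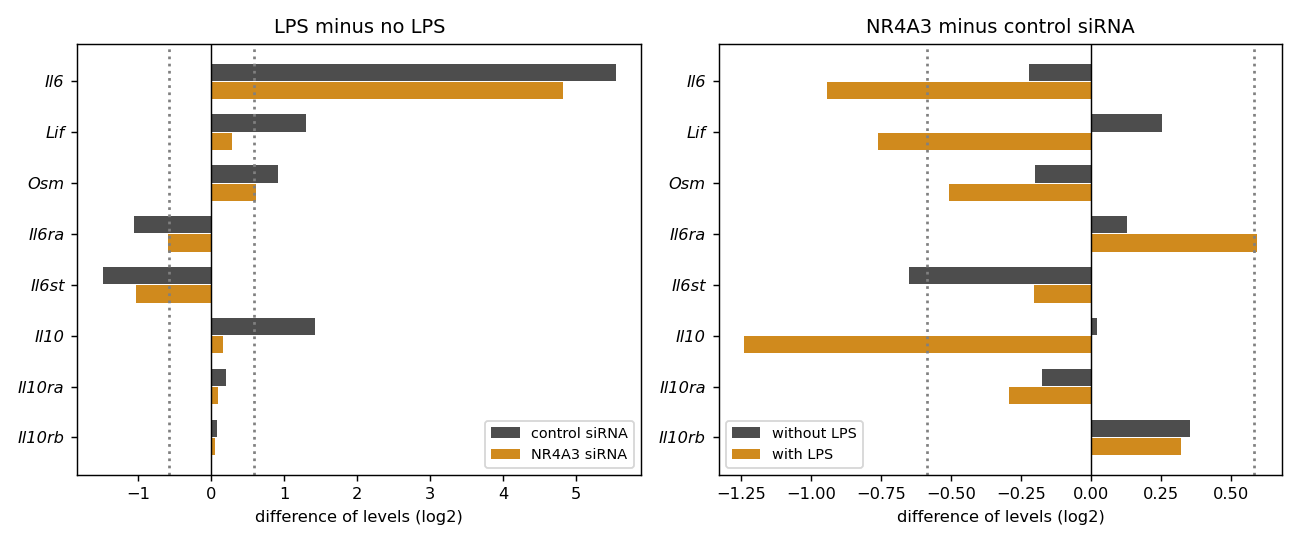
Log2 difference of the 8 genes with LPS (left; bars for control and NR4A3 siRNA) and with NR4A3 siRNA (right; bars without and with LPS), each from 2 arrays. Dotted lines mark 1.5-fold in either direction. The left panel shows Il6, Lif, Osm and Il10 up and 2 receptor chains down past 1.5-fold with control siRNA. Il10 was not counted, as both of its arrays in that pair lay below 6.66. The right panel shows Il6, Lif and Il10 past 1.5-fold lower in the pair with LPS; without LPS all 3 lay below 6.66 on both arrays, where a lower level is hard to resolve, and Il10 lay below it with LPS too.

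Several cell type markers also differed with LPS. Dcn, a matrix proteoglycan of stromal cells, stood at 7.30 and 9.99 without and with LPS under control siRNA and at 7.06 and 10.31 under NR4A3 siRNA. The other 5 stromal markers (Col1a1, Col1a2, Pdgfra, Lum and Cxcl12) stayed at or below 7.26 on every array. The 6 macrophage markers went both ways: Adgre1 and Fcgr1 were higher with LPS under both siRNAs (1.54 and 1.83, 2.72 and 2.52), and Csf1r, Mertk, Cd68 and C1qa were lower. Their median, 10.40 and 11.97 under control siRNA and 10.65 and 12.24 under NR4A3 siRNA, does not show this split. Of 3 monocyte markers measured, Plac8 stood at 5.59 and 8.59 without and with LPS under control siRNA and at 5.47 and 7.33 under NR4A3 siRNA, and Cd14 was 0.56 and 0.87 higher. Ccr2 went the other way, from 11.72 to 9.72 and from 11.73 to 10.09. Among dendritic cell markers, Cd209a differed by -3.27 and -5.06 and Irf8 was 1.37 and 1.18 higher. Ccr7, a chemokine receptor of migrating dendritic cells, was 0.39 higher with LPS under control siRNA and 3.19 higher under NR4A3 siRNA. Kit, 1 of 5 mast cell or basophil markers, was 0.24 and 2.12 higher, the latter from 5.88, below 6.66. Mcpt8, Cpa3, Ms4a2 and Fcer1a, the rest of that list, stayed below 6.66 on every array. Under NR4A3 siRNA they differed by 0.09, -0.11, 0.10 and 0.02 with LPS. The part of these cells in the LPS differences was not tested.

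Silencing of NR4A3 went with small differences in these genes when no LPS was given. Il6st was the only one of the 5 that passed the filter to exceed 1.5-fold: it was 1.57-fold lower, at 11.31 against 11.96. Across 10257 genes, 4.69% were at least 1.5-fold lower and 1.62% higher in the same pair of arrays (6.31% either way). Il10rb was 1.28-fold higher, Osm 1.15-fold lower, Il10ra 1.13-fold lower and Il6ra 1.09-fold higher. Il6, Lif and Il10 were below 6.66 on both arrays of this pair, with differences of -0.22, 0.25 and 0.02 (log2), the last of which was at or near 0 under all scalings.

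Under LPS, NR4A3 siRNA went with levels of Il6 and Lif that were lower by 1.5-fold or more. Il6 stood at 10.28 against 11.23 with control siRNA, a 1.92-fold lower level, which was 198th from the lowest of 10210 genes. Lif stood at 6.31 against 7.07, 1.70-fold lower, with the lower array below the filter. These were the lower genes and Il6ra the higher one among 7 that passed the filter. Over all genes of that pair, 4.73% were lower and 3.73% higher (8.46% either way).

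Of the others, Osm was 1.42-fold lower with NR4A3 siRNA under LPS, from 8.85 to 8.34. Il6ra was 1.51-fold higher, from 8.68 to 9.27, a difference of 0.59 (log2) that dropped to 0.53 after cyclic loess and 0.55 after repeated quantile normalization, both short of 1.5-fold. Il6st, Il10ra and Il10rb differed by -0.20, -0.29 and 0.32. Il10 was lower by 1.24 on the log2 scale, from 6.10 to 4.86, below the filter on both arrays. The median over the 8 genes was -0.40 with LPS and -0.08 without, against 0.05 and 0.02 over all genes that passed. Over only the members past the filter it was -0.29 with LPS (7 genes) and -0.17 without (5 genes), so these 2 medians cover different genes. None of the 8 genes reached 2-fold past the filter in either siRNA comparison, where 1.92% and 2.14% of all genes did so without and with LPS (1.72% and 1.67% as lower).

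The average siRNA effect over both states called 0 of 7 genes in limma at an adjusted p below 0.05, while 5.56% of all genes were called (1.98% higher, 3.58% lower). At an unadjusted p below 0.05 the same fit gave 5 of 7 (Il6, Osm, Il6ra, Il6st and Il10rb), where 26.1% of all genes reached that level. The nearest to the threshold was Il10rb, higher by 0.34 ± 0.10 in 2 of 2 states (log2, SE; limma adjusted p = 0.099, between 0.062 and 0.13 over 7 alternatives). Il6 averaged -0.58 ± 0.18, lower in 2 of 2 states (limma adjusted p = 0.12, between 0.094 and 0.22 over the alternatives). Il6st averaged -0.43 ± 0.13 and Osm -0.35 ± 0.12, lower in both states as well, with adjusted p-values of 0.12 and 0.13 in limma. Macrophage markers had a median of 10.40 and 10.65 with control and NR4A3 siRNA without LPS, and of 11.97 and 12.24 with it. C1qa, a complement gene of macrophages, stood at 8.04 and 9.15 without LPS and at 6.58 and 7.60 with it. Ccr7 stood at 12.99 and 9.46 without LPS and at 13.38 and 12.64 with it. Irf8 stood at 12.01 and 11.01 and at 13.38 and 12.18, and Cd209a at 8.90 and 10.87 without LPS. The other dendritic cell markers differed less. Itgax stood at 12.85 and 12.89 without LPS and at 12.38 and 12.58 with it. Cd74 stayed between 13.38 and 13.47 and H2-Ab1 between 12.27 and 12.49. Batf3 stood at 7.80 and 7.92 and at 8.08 and 7.66, and Zbtb46 at 7.20 and 6.93 and at 7.46 and 6.82. Flt3 was below 6.66 on all 4 arrays. The part of these cells in the siRNA differences was not tested.

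The LPS differences of Il6, Lif, Osm, Il6ra and Il6st were smaller in size with NR4A3 siRNA than with control siRNA, whichever way they pointed. Il10ra (0.08 against 0.20) and Il10rb (0.05 against 0.08) had small differences under both. Those of Il10rb did not keep this order: after median centring they were 0.0974 and 0.0975. The share of all genes with this pattern was not computed, so it is not given as a trait of these genes. The LPS difference with NR4A3 siRNA minus that with control siRNA was -0.72 for Il6, -1.02 for Lif, -0.31 for Osm, 0.47 for Il6ra and 0.45 for Il6st (log2). Over 10592 genes this quantity had a median of 0.05, and the middle 95% of genes lay between -0.53 and 0.61, with Il6 and Lif outside that span and Osm, Il6ra and Il6st inside it. Both outside values subtract unstimulated levels below 6.66, and Lif reached 6.66 on 1 array, so they are less certain than those of genes above it on all arrays. Sizes larger than that of Lif were found in 1.11% of genes, and larger than that of Il6 in 2.92%. Il10, below the filter, was at -1.26, and its receptor chains were at -0.12 and -0.03. With 1 array per condition this quantity has no test.

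**Figure D3:**
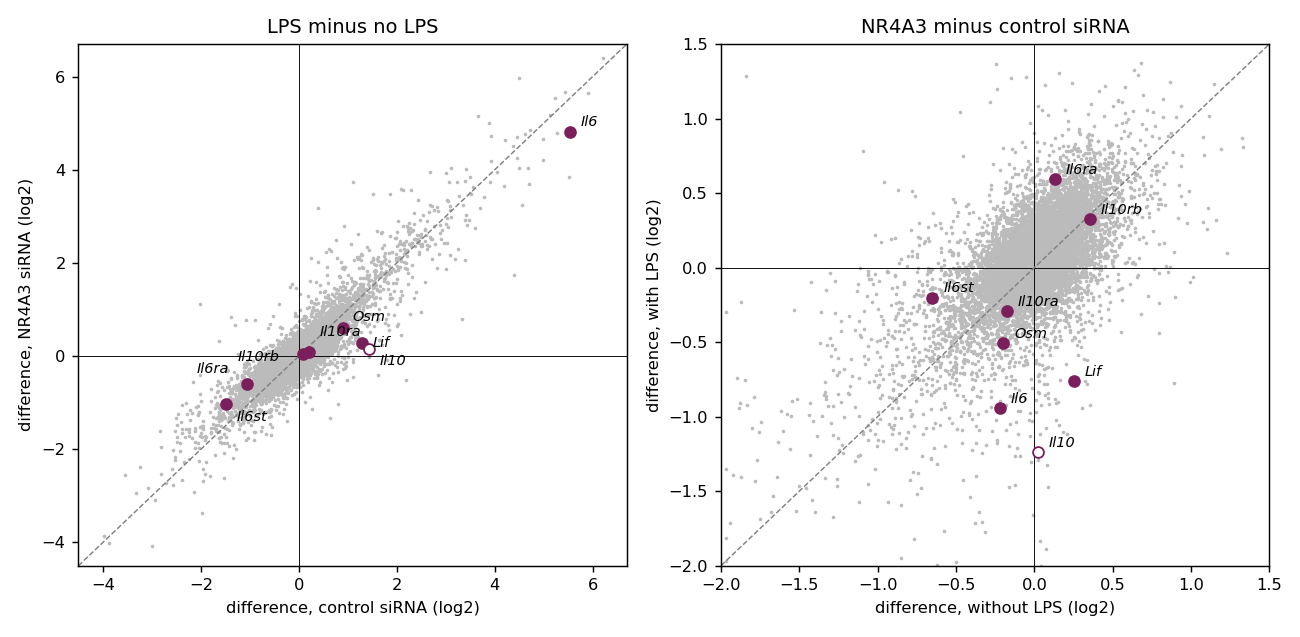
The 8 genes (large points; Il10 open, as it lies below the filter) over 10592 genes past the filter (grey), with the dashed line at equal differences (log2). Left, LPS difference with control siRNA against that with NR4A3 siRNA, pairs that share no array; right, siRNA difference without LPS against that with LPS. The axes leave out 1 gene on the left and 57 on the right. In both panels Il6ra and Il6st lie above the dashed line and the other members below it, with Il10ra and Il10rb closest to it.

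The genes with the most similar course were found by the root mean square difference of gene-centred log2 values over the 4 arrays, among 10143 genes, for members with a range of at least 1 that passed the filter. With 4 values per gene this is a description only. For Il6 they were Ptgs2 (0.18), which encodes cyclooxygenase-2, Slfn4 (0.24) and the chemokine Cxcl11 (0.25). Ptgs2 stood at 6.71, 11.99, 6.69 and 11.47 for control siRNA without and with LPS and NR4A3 siRNA without and with LPS. For Lif they were Fcgr4 (0.06), an activating Fc receptor, Synpo2 (0.07) and Layn (0.09).

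For Osm the nearest were Bloc1s6 (0.03), Adprm (0.04) and Il27 (0.05), the last a subunit of a cytokine that itself signals through gp130. Il27 stood at 7.19 and 8.12 without and with LPS under control siRNA and at 7.01 and 7.73 under NR4A3 siRNA. For Il6ra they were the cannabinoid receptor gene Cnr2 (0.02), Timm8a1 (0.02) and Rasal3 (0.03). For Il6st they were Igflr1 (0.03) and the mitotic kinase genes Aurka (0.04) and Aurkb (0.05). Aurkb stood at 9.48 and 7.95 under control siRNA and at 8.83 and 7.87 under NR4A3 siRNA, so it was lower with LPS under both and lower with NR4A3 siRNA mainly without LPS, as Il6st was.

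Among the wider interleukin-6 type cytokines, 9 of 11 listed genes were measured. With LPS and control siRNA 6 passed the filter. Of these, 5 were at least 1.5-fold higher and 0 lower: Il6, Lif, Osm and the 2 subunits of interleukin-27, Il27 and Ebi3. With NR4A3 siRNA 5 passed it, and 4 were higher, without Lif. Among all genes, 10.2% were higher and 9.44% lower with control siRNA, and 10.3% and 6.88% with NR4A3 siRNA. Ebi3 stood at 10.76 and 12.39 without and with LPS under control siRNA and at 11.05 and 12.06 under NR4A3 siRNA. It rose by 1.32 ± 0.16 on average (limma adjusted p = 0.0026), and Il27 rose by 0.82 ± 0.11 (limma adjusted p = 0.0033). Clcf1, a ligand of the ciliary neurotrophic factor receptor, stayed between 7.50 and 7.75, and Il11, Ctf1 and Il31 stayed below 6.66 on all arrays. With NR4A3 siRNA under LPS, Il27 and Ebi3 differed by -0.40 and -0.33, short of 1.5-fold.

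Of 8 listed receptor chains of the interleukin-6 family, 7 were measured and 3 passed the filter: Il6ra, Il6st and Il27ra. All 3 were at least 1.5-fold lower with LPS under either siRNA, with the exception given above for Il6ra after median centring. Of all genes, 9.44% were lower with control siRNA and 6.88% with NR4A3 siRNA. Il27ra stood at 7.99 and 7.05 without and with LPS under control siRNA and at 7.78 and 7.01 under NR4A3 siRNA, and it fell by 0.86 on average with an SE of 0.10 (limma adjusted p = 0.0025). The private chains that LIF and oncostatin M need beside gp130 were dim: Lifr ran from 5.75 to 6.03 and Osmr from 5.59 to 5.64, below 6.66 on all 4 arrays.

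Of 7 listed interleukin-10 type cytokines, 5 were measured and 1, Ifnl2, passed the filter. Ifnl2 ran from 7.65 to 7.91 and is uncertain, since its near-identical copy Ifnl3 could share its probes. Il19, the coding gene next to Il10, and Il20 and Il24 stayed below 6.66. Of the 7 receptor chains of this family, all measured, Il20rb was higher with LPS under either siRNA, at 7.20 and 8.14 with control siRNA and at 7.33 and 8.38 with NR4A3 siRNA (average 1.00 ± 0.10, limma adjusted p = 0.0013). Ifnlr1, which pairs with Il10rb in the lambda interferon receptor, was lower with NR4A3 siRNA, at 6.04 against 6.72 without LPS and at 6.31 against 6.92 with it. It fell by 0.64 on average with an SE of 0.10 (limma adjusted p = 0.028, between 0.019 and 0.054 over 6 alternatives), although both levels with NR4A3 siRNA were below the filter.

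**Figure D4:**
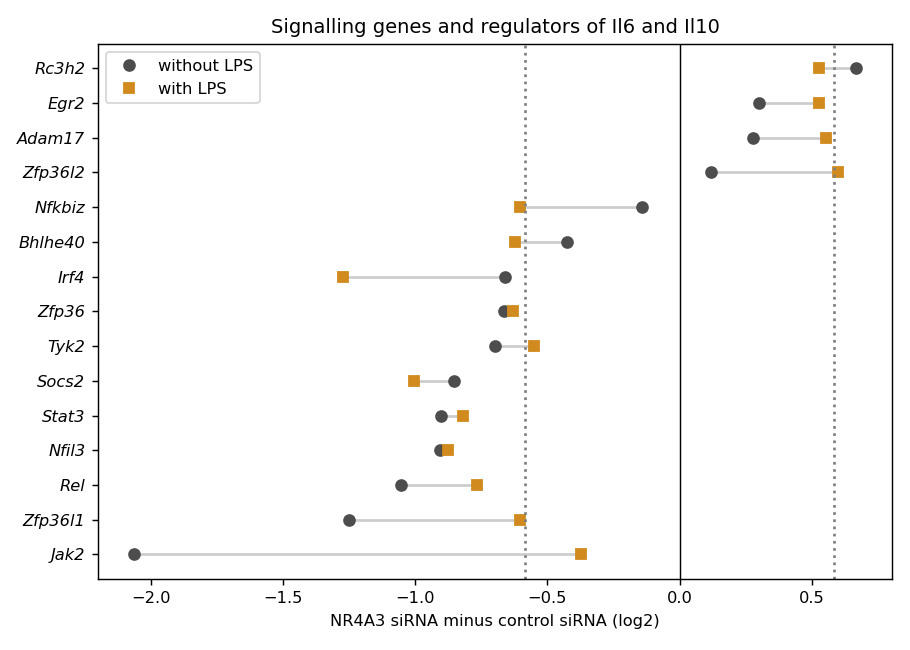
NR4A3 siRNA minus control siRNA (log2), without LPS (circles) and with LPS (squares), for the 15 genes among JAK-STAT signalling genes and regulators of Il6 and Il10 whose difference reached 0.5 in size in at least 1 state. Dotted lines mark 1.5-fold. Stat3, Socs2, Nfil3, Rel, Irf4, Zfp36 and Zfp36l1 lie left of the line in both states, and Jak2 lies at -2.06 without LPS and -0.37 with it.

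Downstream of these receptors, 15 of 16 listed kinases, STATs, inhibitors and sheddases were measured, and all 15 passed the filter. LPS went with 5 genes higher by 1.5-fold or more (Jak2, Stat5a, Socs1, Socs3 and Cish) and 1 lower (Adam10) under either siRNA. Among all genes, 10.2% were higher and 9.44% lower with control siRNA, and 10.3% and 6.88% with NR4A3 siRNA. Under control siRNA the difference of Jak2 was 0.61, and it fell short of 1.5-fold in 1 of 3 other scalings (lowest value 0.50). Socs3, the inhibitor that binds gp130, stood at 7.60 and 10.02 without and with LPS under control siRNA and at 7.61 and 10.06 under NR4A3 siRNA, and rose by 2.43 ± 0.10 (limma adjusted p = 7.1e-05). Socs1, another JAK inhibitor, rose by 2.44 ± 0.10 (limma adjusted p = 7.4e-05). Adam10, a protease able to shed the interleukin-6 receptor, was lower by 0.94 and 0.80 with LPS.

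With NR4A3 siRNA the signalling genes past 1.5-fold were all lower: 4 of 15 without LPS (Jak2, Tyk2, Stat3 and Socs2) and 2 of 15 with LPS (Stat3 and Socs2). Over all genes 4.69% were lower and 1.62% higher without LPS, and 4.73% and 3.73% with it, so lower calls also outnumbered higher ones in general. Stat3, the transcription factor activated by both receptor families, stood at 11.53 and 11.98 without and with LPS under control siRNA and at 10.63 and 11.15 under NR4A3 siRNA. Both arrays with NR4A3 siRNA were below both with control siRNA, and Stat3 fell by 0.86 on average with an SE of 0.10 (limma adjusted p = 0.015, between 0.0074 and 0.040 over 7 alternatives). Socs2 fell by 0.93 with an SE of 0.10 (limma adjusted p = 0.013, past the threshold in 7 of 7 alternatives). Tyk2, a kinase of the interleukin-10 receptor, fell by 0.62 with an SE of 0.10 (limma adjusted p = 0.032, up to 0.064 over the alternatives). Jak2 stood at 11.38 and 9.31 with control and NR4A3 siRNA without LPS and at 11.99 and 11.62 with LPS, so its average missed the threshold (limma adjusted p = 0.11). The sheddase gene Adam17 was 0.28 and 0.55 higher with NR4A3 siRNA, short of 1.5-fold.

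Of 20 measured genes known to respond to STAT3, 9 were higher by 1.5-fold or more and 2 lower with LPS and control siRNA, the lower ones being Fos and Myc, and 7 were higher and 3 lower with NR4A3 siRNA (all genes: 10.2% and 9.44%, then 10.3% and 6.88%). Lcn2, which encodes the iron-carrier binding protein lipocalin-2, had the largest LPS difference among them, from 7.79 to 13.23 with control siRNA and from 7.93 to 13.60 with NR4A3 siRNA. Between the siRNAs, 19 passed the filter in each state. Of these, 2 were lower without LPS (Il4ra and Timp1), and with LPS Timp1 was lower and Fos higher. Among all genes, 4.69% were lower and 1.62% higher without LPS, and 4.73% and 3.73% with it. The counts with LPS lie near these shares. Timp1, an inhibitor of matrix proteases, stood at 10.54 and 12.46 under control siRNA and at 9.92 and 11.78 under NR4A3 siRNA, and fell by 0.66 with an SE of 0.10 (limma adjusted p = 0.026, past the threshold in 6 of 7 alternatives).

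Of 12 genes known to respond to interleukin-10 in myeloid cells, 4 were lower with NR4A3 siRNA without LPS (Il4ra, Etv3, Nfil3 and Zfp36) and 2 with LPS (Nfil3 and Zfp36), with 0 higher in either state, against 4.69% and 4.73% of all genes lower and 1.62% and 3.73% higher. The list had medians of -0.32 and -0.25 in these comparisons, against 0.02 and 0.05 over all genes. The lists overlap, so some genes are counted more than once. Socs3, Bcl3, Il1rn and Il4ra are also among the STAT3 genes. Nfil3 is also among the transcription regulators below, and Zfp36 among the regulators of mRNA decay. Nfil3, a basic leucine zipper transcription factor, stood at 9.77 and 10.25 without and with LPS under control siRNA and at 8.86 and 9.37 under NR4A3 siRNA, and fell by 0.89 with an SE of 0.10 (limma adjusted p = 0.013, past the threshold in 7 of 7 alternatives). Zfp36, which encodes tristetraprolin, a protein that promotes decay of cytokine mRNAs, fell by 0.65 with an SE of 0.10 (limma adjusted p = 0.027, past it in 6 of 7). Etv3, an ETS family repressor, was lower by 0.96 without LPS and by 0.47 with it (limma adjusted p = 0.047, past the threshold in 3 of 7 alternatives), and Ddit4 by 0.43 and 0.56 (limma adjusted p = 0.050, short of the threshold). With LPS 4 of the 12 were higher with control siRNA and 5 with NR4A3 siRNA, against 10.2% and 10.3% of all genes.

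Of the regulators of Il6 and Il10 transcription, 15 of 17 were measured. With NR4A3 siRNA 3 were at least 1.5-fold lower without LPS (Rel, Irf4 and Nfil3) and 5 with LPS (these and Nfkbiz and Bhlhe40), with 0 higher, where 4.69% and 4.73% of all genes were lower and 1.62% and 3.73% higher. Rel, the NF-kB subunit c-Rel, stood at 11.65 and 12.38 without and with LPS under control siRNA and at 10.60 and 11.61 under NR4A3 siRNA, and fell by 0.91 with an SE of 0.11 (limma adjusted p = 0.018, past the threshold in 6 of 7 alternatives). Irf4, an interferon regulatory factor of dendritic cells, was 0.66 lower without LPS and 1.27 lower with it (limma adjusted p = 0.034, past the threshold in 4 of 7). Nfkbiz, which encodes the NF-kB cofactor IkB-zeta known for its role in Il6 transcription, stood at 7.13 and 8.69 without and with LPS under control siRNA and at 6.98 and 8.09 under NR4A3 siRNA. Irf1, another interferon regulatory factor, was 1.23 and 1.01 higher with LPS under control and NR4A3 siRNA. Rela stayed between 10.61 and 10.86.

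Of 9 regulators of mRNA decay, Zfp36 and Zfp36l1 were lower by 1.5-fold or more after NR4A3 silencing, without LPS and with it. Among all genes, 4.69% were lower and 1.62% higher without LPS, and 4.73% and 3.73% with it. Rc3h2, a roquin family gene, was higher by 0.67 without LPS and by 0.53 with it (limma adjusted p = 0.034, past the threshold in 4 of 7 alternatives), and Zfp36l2 was higher with LPS at 0.60, which 1 of 3 other scalings kept past 1.5-fold. Zc3h12a, which encodes Regnase-1, an RNase that degrades Il6 mRNA, stood at 7.84 and 8.84 without and with LPS under control siRNA and at 7.87 and 8.93 under NR4A3 siRNA.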

How the data were processed

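Total RNA of 4 cultures was measured on 1 array each, and groups were taken from the sample titles. The deposited values are log2 expression values from the authors, summarised by RMA and quantile-normalized, per the labels' protocols. Expression Console 1.1 is named by the submitters' processing notes and GeneSpring by the design text. Quantile normalization would hide a shift of most genes in 1 direction. No genome build is given for the array values. The promoter coordinates are on build GRCm38.p6.

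Probe sets with 1 symbol in the platform annotation (21789 of 28856) were used, the probe set of highest mean for each gene. Differences between 2 arrays have no test. The additive fit used limma 3.58.1 (lmFit and eBayes, Benjamini-Hochberg) in R 4.3.3 over genes with at least 1 array at 6.66, the median of named genes, with a prior of 4.76 degrees of freedom; its residual holds the difference of the LPS effects and array noise. It was tested on simulated data. The number of arrays limits precision.

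Named genes were Nr4a3, the 8 members, from each of 9 gene lists the 3 non-members with the largest difference in each siRNA comparison and the 2 with the largest LPS difference under control siRNA, among genes past the filter, and the 3 genes most like each member. Other genes (among them Tyk2, Adam10, Bhlhe40, Rela, Lifr, Osmr, Il19, Il20 and Il24) were named after their values were seen. Members, lists and the rule were chosen with earlier results of these data known. Alternatives were other scalings, probe set means, filters, fold thresholds and a variance trend.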

Additional observations from a re-analysis of the deposited data

Results flagged for a closer look

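The siRNA difference of Lif pointed in opposite directions without and with LPS, and that of Il10 was near 0 without LPS and negative with it. This was not tested, since each state has 1 pair of arrays. The share of all genes with opposite directions was not computed. For Lif, with NR4A3 minus control siRNA at 0.25 without and -0.76 with LPS, the difference with LPS minus that without was -1.02 (log2). For Il10 it was -1.26, from 0.02 without LPS, a value that lay on both sides of 0 under other scalings, and -1.24 with LPS. Lif was below 6.66 on 3 arrays and Il10 on all 4.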

How the results depend on the processing

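At a 2-fold threshold the LPS comparison with NR4A3 siRNA counted 2 of the 8 genes in place of 4, and both siRNA comparisons counted 0 in place of 1 without LPS and 3 with LPS. At 3-fold, the LPS comparisons counted 1 each (Il6), and the siRNA comparisons 0. The changed threshold accounts for these by construction. The other alternatives kept each count of members within 1.5 times, no counted difference changed sign, and for single genes the call was lost under another scaling for Il6ra (LPS with NR4A3 siRNA, and siRNA with LPS) and Osm (LPS with NR4A3 siRNA). A filter at the 75th percentile of named genes ended the calls of Lif (LPS with control siRNA, and siRNA with LPS) and that of Osm for LPS with NR4A3 siRNA. Without a filter Il10 was past 1.5-fold with LPS under control siRNA and with NR4A3 siRNA under LPS. The limma adjusted p of Lif for LPS lay between 0.039 and 0.12 over 6 alternatives, below 0.05 with the mean of probe sets; Lif itself has 1 probe set, so only the other genes differed there. Over all genes, the siRNA effect was called for 589 (210 higher, 379 lower), but for 218 (44 and 174) after repeated quantile normalization, 278 (55 and 223) after cyclic loess and 156 (24 and 132) without a filter; the cause was not tested. No paired analysis was possible because each condition has 1 array and the labels carry no replicate numbers. Low signal limits Il10, Lif and unstimulated Il6, whose levels lie where arrays compress differences.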
